A study of Mus musculus with 19 samples.

Results

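Mef2a, Mef2c and Mef2d encode 3 of the myocyte enhancer factor 2 (MEF2) transcription factors, and their RNA levels and transcript isoforms were examined in differentiating mouse muscle cells. The 3 genes were chosen by family name, with their counts and transcript shares in these libraries already known, from 35598 genes of which 15123 passed the filter on low counts. All 3 members passed it. Their levels and transcript shares across the stages are therefore given as descriptions without a test. Tests are given only for the genotype labels, for differences between stages in the genotype difference, and for genes outside the family. The known counts covered both genotype labels, so the p-values of the 3 genes are not independent of their choice. Mef2b, the remaining MEF2 gene, had 0 to 9 estimated counts per library and was not tested.

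The cells were primary myoblasts from mouse hind-limb muscle, of a WT or a Glud1KO genotype label. Glud1 encodes glutamate dehydrogenase, which links glutamate to the citric acid cycle in mitochondria. Proliferating myoblasts kept in growth medium were taken at 24 h (3 WT and 3 Glud1KO libraries), differentiated myotubes at 48 h (3 WT and 2 Glud1KO) and fused myotubes at 72 h (4 of each), 19 libraries in 6 groups. The labels call the replicates biological without saying whether each came from a separate animal, so p-values measure the spread between these libraries. The sources used here do not say how the Glud1 allele was made.

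MEF2 proteins bind DNA through a MADS-box domain, work together with MyoD and myogenin, and switch on genes of the contractile apparatus and of energy metabolism when myoblasts leave the cell cycle and differentiate. Class IIa histone deacetylases hold them inactive, and kinase signals release them. Each gene makes several proteins, because the transcripts take 1 of a pair of mutually exclusive exons behind the DNA-binding domain and include or skip a short exon in the activation domain. In Mef2d the 135-base member of the pair, called alpha2, is known as the muscle-specific form.

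The exons that distinguish the isoforms are shown first because the transcript results turn on them. They were cut from the GENCODE M21 transcript sequences at the annotated exon bounds, and positions are in GRCm38. They are written 5′ to 3′ on the gene's strand, with capitals for bases that are the same in all genes of a set. The exon of the pair that lies downstream in the transcript is shown for Mef2c, at chr13:83625470-83625607 (plus strand), and Mef2d, at chr3:88158221-88158355 (plus).
Mef2c 138-base exon: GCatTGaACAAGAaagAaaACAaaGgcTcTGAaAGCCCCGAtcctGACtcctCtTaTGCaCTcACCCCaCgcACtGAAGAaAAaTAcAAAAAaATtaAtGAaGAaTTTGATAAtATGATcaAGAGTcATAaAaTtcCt
Mef2d 135-base exon: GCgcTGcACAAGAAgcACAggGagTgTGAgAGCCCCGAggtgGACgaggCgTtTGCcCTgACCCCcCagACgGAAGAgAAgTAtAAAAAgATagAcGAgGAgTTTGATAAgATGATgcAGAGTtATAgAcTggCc
The upstream exon of each pair is at chr7:67268269-67268400 (minus strand) in Mef2a, chr13:83625265-83625408 in Mef2c and chr3:88158034-88158171 in Mef2d.
Mef2a 132-base exon: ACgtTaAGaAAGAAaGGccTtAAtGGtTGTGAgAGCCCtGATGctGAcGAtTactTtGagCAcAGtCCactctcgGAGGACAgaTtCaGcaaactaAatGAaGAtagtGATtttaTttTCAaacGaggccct
Mef2c 144-base exon: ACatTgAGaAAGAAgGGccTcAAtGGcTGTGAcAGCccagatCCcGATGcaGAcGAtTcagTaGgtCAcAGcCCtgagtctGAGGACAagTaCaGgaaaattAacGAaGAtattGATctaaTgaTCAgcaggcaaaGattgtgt
Mef2d 138-base exon: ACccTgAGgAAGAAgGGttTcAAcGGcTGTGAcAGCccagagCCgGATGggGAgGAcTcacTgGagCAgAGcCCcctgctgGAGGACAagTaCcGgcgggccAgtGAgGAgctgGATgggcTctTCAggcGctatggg
The short exon lies at chr7:67244521-67244544 in Mef2a, chr13:83654598-83654621 in Mef2c and chr3:88161781-88161801 in Mef2d.
Mef2a 24-base exon: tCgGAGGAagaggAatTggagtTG
Mef2c 24-base exon: tCtGAGGAtgtggAtcTgctgtTG
Mef2d 21-base exon: aCtGAGGAccAttTagatcTG
In the downstream exons 90 bases were the same in Mef2c and Mef2d, or 66.7% of those aligned. In the upstream exons 67 bases were the same in all 3 genes, and in the short exons 10. The upstream exons of Mef2a and Mef2c shared 71.2% of their aligned bases. The 2 exons of a pair shared 65.2% in Mef2c and 57.4% in Mef2d.

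Library size ranged from 16168131 to 30742634 estimated counts. Glud1 RNA did not differ between the labels in the gene-level test. In myoblasts it was 189 ± 4.17 CPM (SD, n = 3) in WT-labelled and 187 ± 2.69 (n = 3) in Glud1KO-labelled libraries. CPM are estimated counts scaled to the library size after TMM scaling. The log2 fold change was -0.02 to -0.09 over the stages (edgeR adjusted p 0.193 to 0.849). With an offset for the effective length of the transcripts in each library, Glud1 was lower under the Glud1KO label at every stage, by -0.26 to -0.34 on the log2 scale (edgeR adjusted p at most 7.08e-04). The names of the deposited files carry a KO mark in both genotype groups, so the groups are called WT-labelled and Glud1KO-labelled and take their genotype from the sample labels. All 8 markers of myogenic cells reached 1 CPM in every group, with a summed level of 2979 to 3132 CPM in WT-labelled myoblasts, 2748 to 2836 CPM in Glud1KO-labelled myoblasts and 10236 to 11371 CPM later. Of other cell types, 2 of 6 fibroblast markers (Dpt at 0 in all libraries, the list summing to 7.13 to 7.76 CPM in WT-labelled and 4.03 to 4.95 CPM in Glud1KO-labelled myoblasts), 0 of 5 endothelial, 1 of 6 immune (Cd68, at most 1.58 CPM) and 1 of 3 Schwann cell markers reached 1 CPM. All 3 smooth muscle and pericyte markers did, with Rgs5 at up to 40.8 CPM and the list summing to 38.2 to 42.1 CPM in WT-labelled and 31.9 to 34.4 CPM in Glud1KO-labelled myoblasts.

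The family rose as a whole through differentiation, and its leading member changed. Mef2a made up most of the family's RNA in myoblasts and Mef2c most of it in fused myotubes. On a scale corrected for length, the summed level of the 3 genes was 211 ± 6.23 TPM (counts scaled by transcript length and library; SD, n = 3) in WT-labelled myoblasts, 938 ± 28.4 (n = 3) in differentiated and 1366 ± 50.9 (n = 4) in fused myotubes. Mef2a's share of that sum was 71.6% ± 1.62 in myoblasts, 33.5% ± 1.08 in differentiated and 16.4% ± 0.368 in fused myotubes. Mef2c's share was 8.78% ± 1.05, 49.2% ± 1.50 and 69.3% ± 0.230 at the same stages. Mef2d kept the narrowest range, with 19.6% ± 0.793, 17.3% ± 1.45 and 14.3% ± 0.288.

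**Figure D1:**
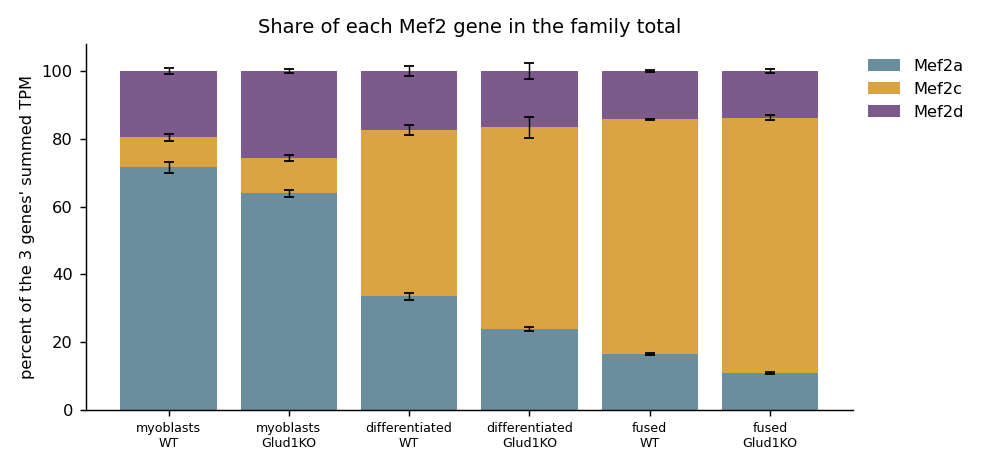
Stacked bars of each gene's mean percent of the 3 genes' summed TPM (vertical axis) in the 6 groups, with error bars of 1 SD over libraries at the top of each segment. The Mef2a segment shrinks from 71.6% in WT-labelled myoblasts to 16.4% in WT-labelled fused myotubes, while the Mef2c segment grows from 8.78% to 69.3%.

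Mef2a (chr7:67231163-67372858, GRCm38, minus strand; ENSMUSG00000030557.17) peaked in differentiated myotubes. In WT-labelled libraries it measured 374, 372 and 380 CPM in myoblasts, 900, 899 and 928 in differentiated myotubes and 698, 685, 683 and 752 in fused myotubes. In Glud1KO-labelled libraries it measured 216, 220 and 225 CPM in myoblasts, 694 and 663 in differentiated myotubes and 471, 486, 492 and 489 in fused myotubes. The WT-labelled differentiated libraries were the highest and the Glud1KO-labelled myoblasts the lowest, and in this order of the 6 groups the only neighbours that overlapped were WT-labelled fused and Glud1KO-labelled differentiated myotubes. Between myoblasts and differentiated myotubes the level differed by a log2 fold change of 1.28 ± 0.039 (SE) in WT-labelled and 1.62 in Glud1KO-labelled cells, and between differentiated and fused myotubes by -0.37 ± 0.036 and -0.49. The WT-labelled value of this second step was -0.21 with the length and GC trend removed.

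Mef2c (chr13:83504034-83667080, plus strand; ENSMUSG00000005583.16) covered a wide range, from myoblasts with little of its RNA to fused myotubes where it led the family. In WT-labelled myoblasts it measured 34.9, 31.0 and 33.5 CPM. The WT-labelled differentiated libraries measured 1029, 1098 and 1007 CPM and the fused libraries 2271, 2209, 2212 and 2378 CPM. Under the Glud1KO label Mef2c measured 23.5, 24.9 and 26.5 CPM in myoblasts, 1412 and 1286 in differentiated and 2345, 2543, 2633 and 2625 in fused myotubes. Levels increased from stage to stage under both labels without overlap, and only the 2 fused groups overlapped with each other. The log2 fold change from myoblasts to fused myotubes was 6.09 ± 0.066 (SE) in WT-labelled and 6.67 in Glud1KO-labelled cells.

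Mef2d (chr3:88142372-88172086, plus strand; ENSMUSG00000001419.17) also increased from stage to stage, over a smaller range. It measured 101, 109 and 115 CPM in WT-labelled myoblasts, 410, 456 and 456 in differentiated and 568, 543, 584 and 591 in fused myotubes. Under the Glud1KO label the values were 101, 103 and 99.3 CPM, then 421 and 470, then 564, 575, 567 and 577. The 2 labels overlapped at each stage, and the stages did not overlap. The log2 fold change from myoblasts to fused myotubes was 2.40 ± 0.050 (SE) in WT-labelled and 2.49 in Glud1KO-labelled cells.

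**Figure D2:**
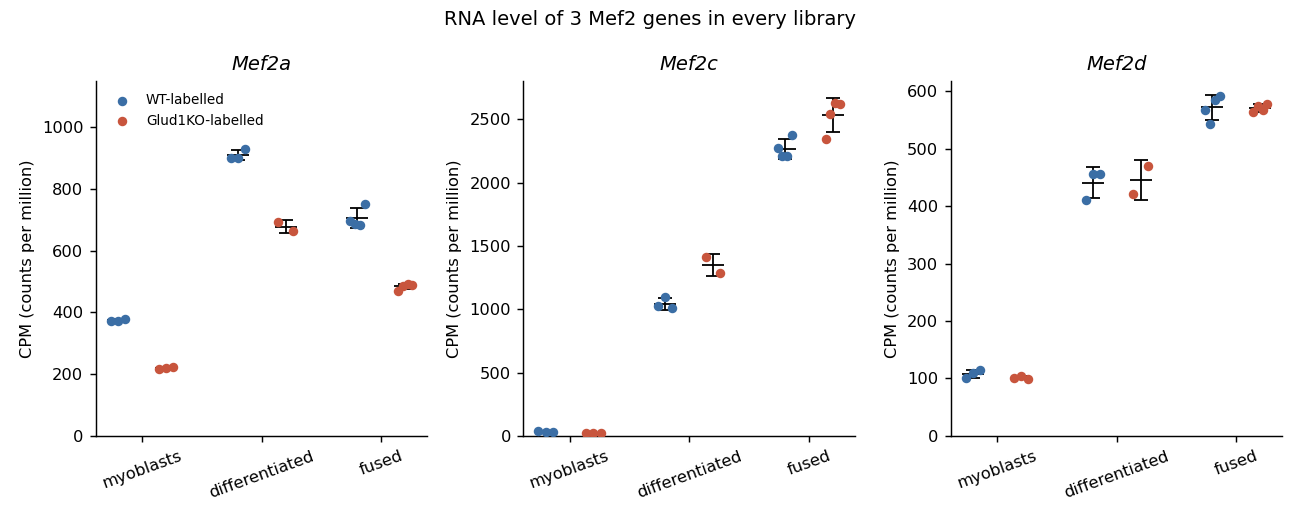
CPM (vertical axis, from 0, a scale of its own for each gene) of Mef2a, Mef2c and Mef2d in every library at the 3 stages, WT-labelled in blue and Glud1KO-labelled in red. Points are libraries and bars the mean ± 1 SD. Every Glud1KO-labelled Mef2a point lies under the WT-labelled points of its stage, and the Mef2d points of both labels overlap.

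The comparison of the genotype labels asks how cells labelled Glud1-deficient differ from WT-labelled cells at the same stage. Mef2a was lower under the Glud1KO label at all 3 stages. Mef2c was lower in myoblasts and higher in differentiated and fused myotubes, and Mef2d did not pass the test at any stage. In bulk RNA, fewer cells of a type and less RNA per cell cannot be told apart. The test was edgeR's quasi-likelihood test over all 15123 genes, with calls at an adjusted p under 0.05.

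Mef2a's level under the Glud1KO label was 0.586 times the WT-labelled level in myoblasts (log2 fold change -0.77, SE 0.040, edgeR adjusted p = 1.10e-13), with the highest Glud1KO-labelled library at 225 CPM and the lowest WT-labelled one at 372. In differentiated myotubes the ratio was 0.746 (log2 fold change -0.42, SE 0.044, edgeR adjusted p = 4.36e-08). In fused myotubes it was 0.687 (log2 fold change -0.54, SE 0.034, edgeR adjusted p = 6.56e-12). The labels did not overlap at any stage. Of its named transcripts, Mef2a-208 had TPM ratios of 0.605, 0.675 and 0.677 and Mef2a-203 of 0.579, 0.712 and 0.647 at the 3 stages, without overlap. For Mef2a-204 the ratio was 0.534 in myoblasts, also without overlap, and it was at 0 under both labels later.

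Mef2c was at 0.751 times the WT-labelled level in myoblasts (log2 fold change -0.41, SE 0.067, edgeR adjusted p = 1.12e-04) and at 1.29 times in differentiated myotubes (0.37, SE 0.058, edgeR adjusted p = 2.25e-05), without overlap at either stage. In fused myotubes the ratio was 1.12 (log2 fold change 0.16, SE 0.045, edgeR adjusted p = 0.0157), and the groups overlapped. That last call was lost without Glud1KO-labelled fused replicate 3 (0.14, edgeR adjusted p = 0.0612) and with the effective-length offset (0.17, edgeR adjusted p = 0.161). Of its named transcripts, Mef2c-201 had TPM ratios of 0.514, 1.24 and 1.10 at the 3 stages (overlap in fused myotubes). Mef2c-218 had 0.626, 1.24 and 1.13 (overlap in myoblasts). Mef2c-212 had 0.835, 0.986 and 1.09, with overlap at both later stages. Mef2c-228 had 1.36, 1.33 and 1.06, with overlap in myoblasts and fused myotubes. Mef2c-202 was at 0 in WT-labelled myoblasts and had 1.12 and 1.03 later, with overlap. For Mef2d the log2 fold changes were -0.09 in myoblasts (95% interval -0.20 to 0.0065), 0.015 in differentiated (-0.09 to 0.12) and -0.0028 in fused myotubes (-0.08 to 0.08). Its transcript Mef2d-201 had a TPM ratio of 0.867 in differentiated myotubes and Mef2d-203 of 0.616 in myoblasts, without overlap. Otherwise the labels overlapped for each named Mef2d transcript at each stage. Thus 2 of the 3 genes were called at each stage, where 11.5% of all tested genes were called in myoblasts, 25.2% in differentiated and 13.0% in fused myotubes. The 3 genes were chosen with their counts known, so this comparison is a description.

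**Figure D3:**
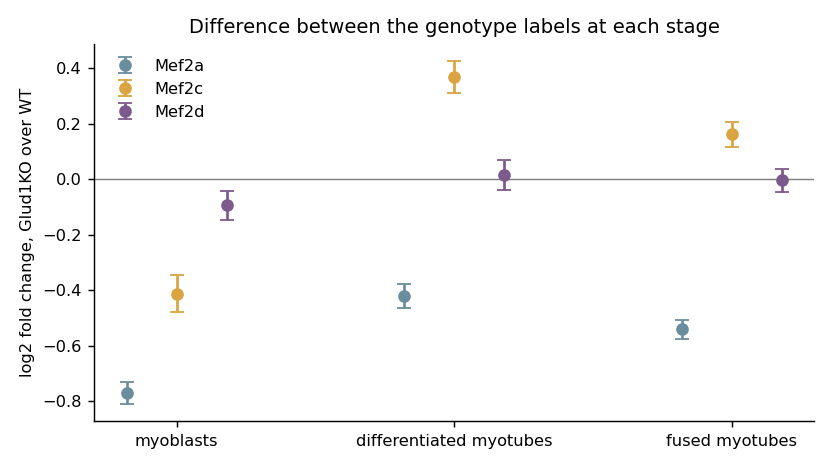
Log2 fold change of Glud1KO-labelled over WT-labelled libraries (vertical axis) for each gene at the 3 stages, with error bars of 1 SE from the fit over all genes. Mef2a lies under 0 throughout (-0.77, -0.42 and -0.54), Mef2c crosses from -0.41 to 0.37 and 0.16, and Mef2d stays near 0.

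The genotype difference itself changed between stages for Mef2a and Mef2c. From myoblasts to differentiated myotubes it moved by 0.35 for Mef2a (SE 0.059, edgeR adjusted p = 8.64e-05) and by 0.78 for Mef2c (SE 0.089, edgeR adjusted p = 2.99e-07). From myoblasts to fused myotubes it moved by 0.23 for Mef2a (edgeR adjusted p = 0.00442) and by 0.57 for Mef2c (edgeR adjusted p = 2.26e-05). So 2 of 3 genes were called in both comparisons, beside 19.1% and 10.3% of all genes. From differentiated to fused myotubes none of the 3 was called by edgeR, beside 14.8% of all genes. Mef2a (-0.12, unadjusted p = 0.0398) and Mef2c (-0.21, unadjusted p = 0.00872) were under 0.05 before adjustment, and DESeq2 called both. Mef2c was also called without WT-labelled differentiated replicate 2 (-0.25), Glud1KO-labelled differentiated replicate 2 (-0.27), or Glud1KO-labelled fused replicate 3 (-0.23) or 4 (-0.22). Leaving out 1 of the 2 Glud1KO-labelled differentiated libraries leaves a single library in that group, which is then assumed to vary like the other groups.

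Levels of dividing-cell markers differed between the labels in myoblasts and differentiated myotubes. Mki67, Top2a and Ccnb1 summed to 734 to 779 CPM in WT-labelled and 810 to 831 CPM in Glud1KO-labelled myoblasts. In differentiated myotubes the sums were 12.5 to 16.7 CPM and 2.94 to 3.36 CPM. In fused myotubes they overlapped, at 0.571 to 1.10 CPM and 0.376 to 0.932 CPM. The summed myogenic, fibroblast and smooth muscle markers given above were lower in Glud1KO-labelled than in WT-labelled myoblasts, without overlap. The part of these markers in the differences of the Mef2 genes and their targets was not tested.

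Among neighbours of Mef2a, Lysmd4 overlaps it on the opposite strand and shares 302 of Mef2a's 14681 exonic bases. Lysmd4 averaged 18.7 CPM, and under the Glud1KO label it was higher in differentiated (log2 fold change 0.63, edgeR adjusted p = 1.51e-06) and fused myotubes (0.48, edgeR adjusted p = 2.43e-06), opposite to Mef2a. In myoblasts its log2 fold change was -0.04 (edgeR adjusted p = 0.869). Whether counting used strand is not given in the sources used here, so reads from the shared bases cannot be told apart. Lrrc28, the next protein-coding gene with counts on the same strand, lies 140551 bases beyond Mef2a and was lower at each stage (-0.31, -0.37 and -0.20, edgeR adjusted p = 3.28e-04, 1.04e-04 and 0.00562). Of the 6 neighbours of Mef2a that were tested, Gm44667, which lies inside it on the same strand, was also lower in differentiated myotubes (-1.12, edgeR adjusted p = 4.14e-05). The remaining 3, Synm, Ttc23 and 4833412C05Rik, were not called at any stage. These neighbours were singled out after their values were seen.

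The transcripts were then compared as shares of their gene's estimated counts. GENCODE M21 lists 12 transcripts of Mef2a, 31 of Mef2c and 7 of Mef2d, of which 11, 27 and 7 had counts. Transcripts with at least 5% of their gene's counts in at least 1 group numbered 3, 5 and 4, and held at least 98.9%, 92.5% and 97.6% of the counts in each group. On the TPM scale short transcripts under that minimum weigh more. Mef2c-216, annotated at 556 bases, held 19.9%, 16.0% and 13.0% of Mef2c TPM at the 3 WT-labelled stages, and Mef2d-205, at 502 bases, 15.4%, 7.51% and 4.65% of Mef2d TPM. These were singled out after their values were seen. Transcripts of a gene share most of their sequence, and the files hold no measure of how surely kallisto divided the reads between them.

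The isoforms of Mef2a differed between myoblasts and the later stages. Its myoblast RNA was divided between transcripts with and without the 24-base exon, and in the later stages most counts were of Mef2a-208, the form that includes it together with the 132-base exon. The share of Mef2a-208 was 60.9%, 60.4% and 60.5% in WT-labelled myoblasts and 60.2%, 60.5% and 67.8% in Glud1KO-labelled ones. In the later stages its group means lay between 89.8% and 90.5%. Mef2a-204, which has the 132-base exon without the 24-base exon, took 27.0%, 26.5% and 25.6% in WT-labelled and 27.8%, 24.7% and 20.5% in Glud1KO-labelled myoblasts. It was at 0 in all later libraries, where 3 counts would be 0.0114% to 0.0409% of the gene, counting error only. Mef2a-203, which also lacks the 24-base exon, went from 12.4% ± 0.891 (SD, n = 3) in WT-labelled myoblasts to 9.09% ± 0.114 and 9.67% ± 0.254. The annotated lengths are 5538 bases for Mef2a-208, 4759 for Mef2a-204 and 2664 for Mef2a-203, and on the length-corrected TPM scale the share of Mef2a-208 was 51.3%, 80.9% and 80.7% at the 3 WT-labelled stages and that of Mef2a-203 22.0%, 17.1% and 18.2%.

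In Mef2c most counts at each stage were of transcripts with the 138-base exon. These held 72.7% of WT-labelled counts in myoblasts, 67.0% in differentiated and 72.8% in fused myotubes. Those with the 144-base exon held 24.6%, 31.2% and 25.6%. The WT-labelled differentiated libraries, at 65.1% to 69.0% for the 138-base and 29.2% to 32.9% for the 144-base exon, overlapped neither of the other stages. Under the Glud1KO label the shares were 68.2%, 70.7% and 73.2% for the 138-base and 28.9%, 27.9% and 25.3% for the 144-base exon, and differentiated libraries overlapped both other stages. The most abundant transcript, Mef2c-201, which takes the 138-base exon, held 57.7%, 51.8% and 57.6%. Mef2c-212, with the 144-base exon, held 18.9%, 25.4% and 19.3%. Mef2c-218 held 15.0%, 11.5% and 11.8%, and Mef2c-228 held 3.55%, 5.42% and 5.36%. On the TPM scale the WT-labelled shares were 33.2%, 34.0% and 36.8% for Mef2c-201, 11.2%, 17.1% and 12.7% for Mef2c-212, 53.6%, 54.3% and 57.0% for the 138-base exon and 24.1%, 27.0% and 27.5% for the 144-base exon.

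In Mef2d the alpha2 form increased with differentiation and remained the minor one. Mef2d-202, the transcript with the 135-base exon, held 3.43%, 2.59% and 3.49% of the gene's counts in WT-labelled myoblasts, 9.51%, 8.75% and 9.78% in differentiated and 11.9%, 12.1%, 13.5% and 11.9% in fused myotubes. Glud1KO-labelled libraries gave 4.02%, 3.77% and 2.97%, then 9.97% and 11.5%, then 12.9%, 12.5%, 12.4% and 11.3%. The WT-labelled stages did not overlap, whereas under the Glud1KO label differentiated and fused myotubes did. On the TPM scale, with Mef2d-202 annotated at 1767 bases and Mef2d-201 at 5401, its WT-labelled share was 6.50%, 18.4% and 23.8%. Mef2d-201, with the 138-base exon, held 64.0%, 61.4% and 59.8%, and Mef2d-204, with the same exon, 24.2%, 19.9% and 17.6%. Mef2d-203, with the 138-base and the 21-base exon, held 6.70%, 8.07% and 9.36%. Their WT-labelled TPM shares were 40.4%, 36.9% and 35.1% for Mef2d-201, 23.5%, 18.4% and 16.0% for Mef2d-204 and 13.3%, 15.4% and 17.6% for Mef2d-203.

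**Figure D4:**
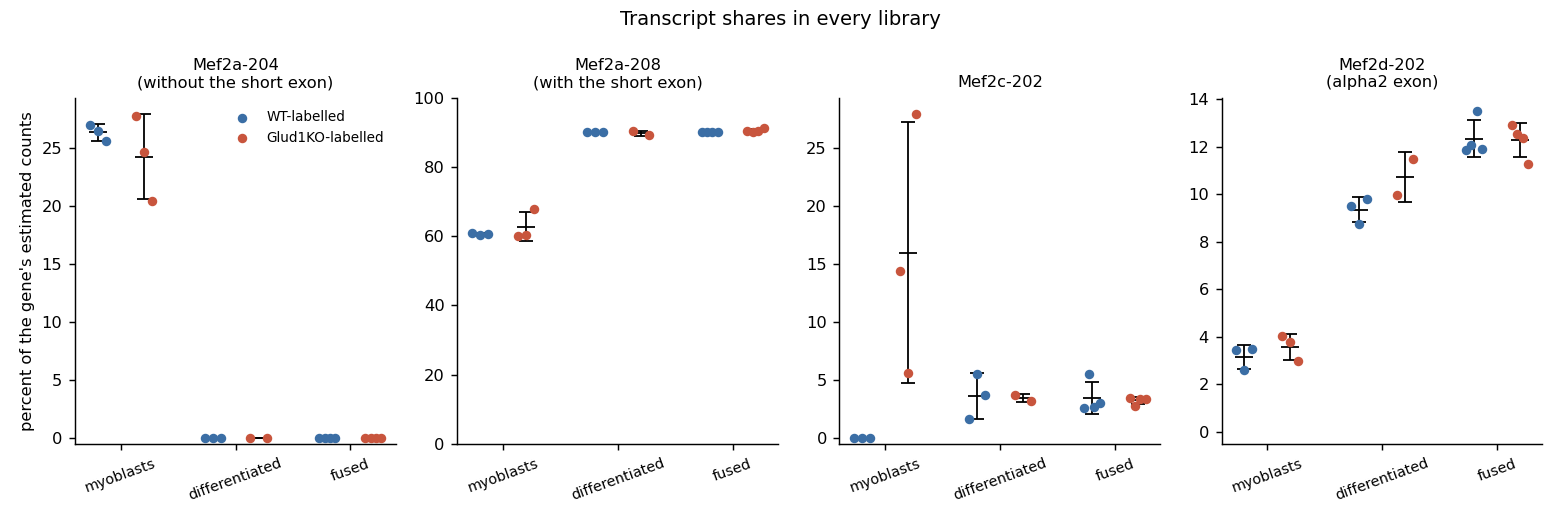
Percent of the gene's estimated counts (vertical axis, a range of its own for each panel) held by Mef2a-204, Mef2a-208, Mef2c-202 and Mef2d-202 in every library, WT-labelled in blue and Glud1KO-labelled in red. Points are libraries and bars the mean ± 1 SD. Mef2a-204 is at 0 after the myoblast stage, and Mef2c-202 spreads from 5.63% to 27.9% over the 3 Glud1KO-labelled myoblast libraries while the WT-labelled ones are at 0.

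Between the genotype labels, transcript use was tested with edgeR's diffSpliceDGE over 44871 transcripts, including 9 of Mef2a, 16 of Mef2c and 6 of Mef2d. On simulated counts this test also called unchanged transcripts. In myoblasts 3 Mef2c transcripts were called, where 0.508% of all transcripts were. Mef2a and Mef2d had 0 calls at any stage, and with an unadjusted p under 0.05 Mef2d had 1 transcript in myoblasts and Mef2a 0. Mef2c had 1 call in differentiated myotubes (0.457% of all transcripts) and 0 in fused myotubes (0.432%), with 1 transcript under an unadjusted p of 0.05 at each of these stages.

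The Mef2c call with the smallest adjusted p in myoblasts concerned transcripts that differ by a single exon. Mef2c-202 has a 60-base exon at chr13:83625265-83625324, the first 60 bases of the 144-base exon printed above, which Mef2c-201 lacks. Mef2c-202 held 14.4%, 5.63% and 27.9% of Mef2c counts in Glud1KO-labelled myoblasts (118, 42.8 and 226 estimated counts) and 0 in the 3 WT-labelled libraries, where 3 counts would be 0.299% to 0.418% (edgeR diffSpliceDGE adjusted p = 5.05e-19). Mef2c-201 held 42.0%, 45.1% and 31.8% against 56.7%, 59.3% and 57.1% (edgeR adjusted p = 8.92e-04). The sum of both was 55.6% ± 4.53 (SD, n = 3) in Glud1KO-labelled and 57.7% ± 1.40 (n = 3) in WT-labelled myoblasts, which overlapped. The spread of Mef2c-202 over the Glud1KO-labelled myoblasts was wide, and in later stages both labels had group means of 3.24% to 3.61%. Mef2c-202 thus reached the 5% for naming only through the Glud1KO-labelled myoblasts, the group in which it was called.

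The other Mef2c calls changed with the libraries or the fit. The Mef2c-201 call, at a log2 difference in use of -0.54, was lost without Glud1KO-labelled myoblast replicate 3 (-0.39, edgeR adjusted p = 0.129) and in a fit of the 2 myoblast groups alone (-0.55, edgeR adjusted p = 0.357). Mef2c-228 held 3.12%, 4.74% and 2.77% in WT-labelled and 6.84%, 4.90% and 7.29% in Glud1KO-labelled myoblasts (log2 difference in use 0.88, edgeR adjusted p = 0.0192). It lost its call in 5 of 9 alternatives, at log2 differences of 0.73 to 0.85. In differentiated myotubes Mef2c-219, which was singled out because it was the only call, had 8.10 to 9.85 estimated counts in WT-labelled libraries and 0 in both Glud1KO-labelled ones (edgeR adjusted p = 0.0181). Without either of those 2 libraries no transcript of the 3 genes was called at this stage.

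Summed over transcripts, the 13 alternative exons gave 39 exact two-sided permutation tests between the labels. The smallest p the test could give was 0.1 with 3 libraries in each group and 0.0286 with 4 in each. In differentiated myotubes, with 3 and 2 libraries, groups without overlap gave 0.2. The smallest adjusted p was 0.867. The 24-base exon of Mef2a was in 60.6% of WT-labelled and 62.8% of Glud1KO-labelled myoblast counts. The largest difference was in the 60-base exon of Mef2c in myoblasts, 16.0 percentage points higher under the Glud1KO label (exact permutation p = 0.1, the smallest possible; adjusted p = 0.867). Mef2c-202 alone holds this exon, so the difference is that of its share given above. It was 9.11 points as a share of TPM. Without Glud1KO-labelled myoblast replicate 3, shares of 14.4% and 5.63% remain under that label, beside 0 in the WT-labelled libraries. Over all 3 myoblast libraries of each label the 144-base exon of Mef2c differed by 4.30 points and its 138-base exon by -4.51 points, without overlap (exact permutation p = 0.1 for each, the smallest possible). As shares of TPM these differences were 0.576 and -6.13 points. The labels also did not overlap for the Mef2c 24-base exon in myoblasts (2.35 points, exact permutation p = 0.1). The same held in differentiated myotubes for the Mef2c 193-base (1.35 points) and Mef2d 135-base exons (1.37 points, exact permutation p = 0.2 for each).

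The genes that act with the family or respond to it were described from lists chosen with earlier results of these data known. Counts of list genes beside the shares of all genes are therefore descriptions. Of 23 listed target genes of MEF2 in muscle, 21 rose and 1 fell from WT-labelled myoblasts to differentiated myotubes, where 42.4% of all tested genes rose and 42.6% fell. Their median log2 fold change was 4.44, beside 0.019 over all genes. From differentiated to fused myotubes 17 rose and 5 fell (37.4% and 37.7% of all genes), with a median of 0.43 beside -0.011. From myoblasts to fused myotubes, Ckm, the muscle creatine kinase, rose by 7.57 on the log2 scale, from 2.22 ± 0.485 to 430 ± 41.3 CPM (SD, n = 3 and 4). Myoz1, a Z-disc protein, rose by 7.43, Slc2a4, the insulin-responsive glucose transporter, by 6.52, and Cox6a2, a muscle subunit of cytochrome c oxidase, by 5.99.

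Between the labels, 15 of 23 target genes were lower under the Glud1KO label in myoblasts and 0 were higher by edgeR, with a median log2 fold change of -0.43 beside 0.014 over all genes, where 6.69% of all genes were lower and 4.85% higher. The number lower was 9 without WT-labelled myoblast replicate 3 and with the effective-length offset, and 10 without Glud1KO-labelled myoblast replicate 1. DESeq2 also gave 15 lower and 0 higher, and 1 gene was higher at an unadjusted edgeR p under 0.05. In differentiated myotubes 11 were higher and 2 lower (11.0% and 14.2% of all genes; median 0.14), and in fused myotubes 3 were higher and 5 lower (6.32% and 6.72%; median -0.0047). The difference between labels moved upward from myoblasts to differentiated myotubes in 15 target genes and downward in 1, beside 7.78% and 11.3% of all genes. From differentiated to fused myotubes it moved upward in 1 and downward in 9, beside 8.27% and 6.53%. Between myoblasts and fused myotubes it moved upward in 13 and downward in 0 by edgeR, beside 5.75% and 4.55% of all genes. At an unadjusted p under 0.05 these counts were 15 and 0, and DESeq2 gave 14 and 0.

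Myom1, which encodes the M-band protein myomesin, was at 35.0 ± 2.32 CPM in WT-labelled and 19.1 ± 1.64 in Glud1KO-labelled myoblasts (log2 fold change -0.88, edgeR adjusted p = 1.11e-10). Lmod3, an actin-nucleating protein of the thin filament, was at 17.0 and 10.6 CPM (-0.68, edgeR adjusted p = 9.92e-08) in myoblasts and higher under the Glud1KO label in differentiated myotubes (0.18, edgeR adjusted p = 0.00574). Myog, the myogenic factor myogenin, was at 114 ± 8.88 and 73.6 ± 8.97 CPM in myoblasts (-0.63, edgeR adjusted p = 4.09e-07), and its log2 fold change was -0.01 at both later stages. Cox6a2 was lower in myoblasts (-0.68, edgeR adjusted p = 0.00266) and higher in differentiated (0.54, edgeR adjusted p = 8.36e-07) and fused myotubes (0.24, edgeR adjusted p = 7.55e-04). In fused myotubes the number of target genes lower fell from 5 to 3 without WT-labelled replicate 1, without Glud1KO-labelled replicate 1 and with the offset, and to 2 without Glud1KO-labelled replicate 2 or 3. Ckm, Des and Myog are also on the list of myogenic markers, and Hdac9 is also among the repressors.

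**Figure D5:**
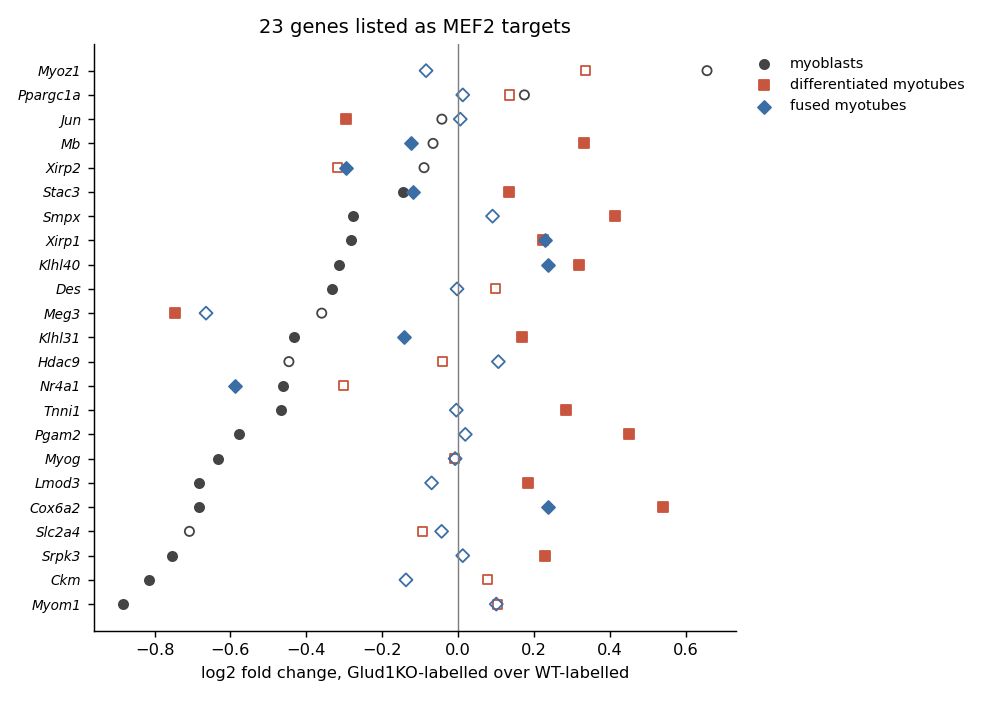
Log2 fold change of Glud1KO-labelled over WT-labelled libraries (horizontal axis) for 23 listed MEF2 target genes, sorted by their value in myoblasts. Filled symbols are called at an edgeR adjusted p under 0.05 and open symbols are not. In myoblasts the 15 filled circles lie left of 0, and 11 of the 13 filled squares for differentiated myotubes lie right of 0.

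Of 8 listed class IIa deacetylases and other repressors, 4 rose and 4 fell from WT-labelled myoblasts to differentiated myotubes (42.4% and 42.6% of all genes), and 2 rose and 4 fell from there to fused myotubes (37.4% and 37.7%). From myoblasts to fused myotubes Hdac7 fell by 4.56 on the log2 scale (50.0 ± 2.09 to 2.06 ± 0.473 CPM), while Hdac9 rose by 3.50, Hdac5 by 0.83 and Hdac4 by 0.64. All of these encode class IIa deacetylases, and Hdac9 is itself a known MEF2 target. Between the labels 0, 1 and 2 of the 8 were called at the 3 stages by edgeR, beside 11.5%, 25.2% and 13.0% of all genes. The 0 in myoblasts stands beside 1 higher and 2 lower at an unadjusted p under 0.05 and 1 lower by DESeq2. In differentiated myotubes Hdac7 was lower under the Glud1KO label (-0.54, edgeR adjusted p = 3.83e-04), and in fused myotubes Hdac4 (-0.16, edgeR adjusted p = 0.0467) and Ncor1, a corepressor that recruits deacetylases (-0.15, edgeR adjusted p = 0.0360).

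Of 10 listed coactivators and partners, 7 rose and 3 fell from WT-labelled myoblasts to differentiated myotubes (42.4% and 42.6% of all genes), and 3 rose and 6 fell from there to fused myotubes (37.4% and 37.7%). From myoblasts to fused myotubes Akap6, a scaffold for protein kinase A, rose by 4.23, Tead4, a factor that pairs with MEF2 on muscle genes, by 2.83, and Kat2b, an acetyltransferase, by 1.35. Maml1, a coactivator of Notch and MEF2, fell by 1.23. Between the labels 2 were lower in myoblasts, 1 was higher and 4 were lower in differentiated myotubes, and 1 was lower in fused myotubes, beside 11.5%, 25.2% and 13.0% of all genes called in either direction. Akap6 was lower in Glud1KO-labelled myoblasts (-0.41, edgeR adjusted p = 2.43e-04). In differentiated myotubes Tead4 was higher (0.37, edgeR adjusted p = 2.65e-05), at 222 ± 5.38 against 171 ± 14.2 CPM, while Vgll2, a TEAD cofactor of muscle, was lower (-0.40, edgeR adjusted p = 3.98e-05), as was the coactivator Ncoa2 (-0.19, edgeR adjusted p = 0.00571).

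Of 16 listed kinases and phosphatases that act on MEF2 or its deacetylases, 11 rose and 5 fell from WT-labelled myoblasts to differentiated myotubes (42.4% and 42.6% of all genes), and 8 rose and 6 fell from there to fused myotubes (37.4% and 37.7%). From myoblasts to fused myotubes Prkaca, a catalytic subunit of protein kinase A, rose by 2.70 and Mapk12, a p38 kinase abundant in muscle, by 1.49. Mapk11, another p38 kinase, fell by 3.47. Camk4 was at 0.338 CPM in WT-labelled myoblasts and at 0 in WT-labelled fused myotubes, so no fold is given. Between the labels 1 was higher and 1 lower in myoblasts, 2 and 3 in differentiated and 2 and 1 in fused myotubes, beside 11.5%, 25.2% and 13.0% of all genes called. Ppp3ca, a catalytic subunit of calcineurin, was lower in Glud1KO-labelled myoblasts (-0.50, edgeR adjusted p = 2.53e-08) and differentiated myotubes (-0.39, edgeR adjusted p = 1.66e-05). Mapk12 was higher in differentiated (0.42, edgeR adjusted p = 1.39e-04) and fused myotubes (0.21, edgeR adjusted p = 0.00496). Sik1, a kinase of class IIa deacetylases, was higher in fused myotubes (0.23, edgeR adjusted p = 4.72e-05), and Gsk3b was lower in differentiated myotubes (-0.21, edgeR adjusted p = 0.00173).

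Of 12 listed splicing regulators of muscle, 7 rose and 5 fell from WT-labelled myoblasts to differentiated myotubes (42.4% and 42.6% of all genes), and 3 rose and 9 fell from there to fused myotubes (37.4% and 37.7%). From myoblasts to fused myotubes Ptbp1, a repressor of many muscle exons, fell by 4.11 (445 ± 13.2 to 25.8 ± 1.41 CPM) and Mbnl3 fell by 5.14. Rbfox1 rose by 4.95 and Rbm24 by 2.54, and both encode RNA-binding proteins that promote muscle exons. Their part in the Mef2 isoform shares was not tested. Between the labels 1 was higher and 1 lower in myoblasts, 1 and 2 in differentiated, and 0 and 2 in fused myotubes, beside 11.5%, 25.2% and 13.0% of all genes called. Mbnl1 was higher in Glud1KO-labelled myoblasts (0.16, edgeR adjusted p = 0.00755) and lower in differentiated myotubes (-0.21, edgeR adjusted p = 0.00258). Rbfox2 was lower in myoblasts (-0.17, edgeR adjusted p = 0.00553), Rbfox1 higher in differentiated myotubes (0.25, edgeR adjusted p = 0.00684) and Ptbp1 lower in fused myotubes (-0.26, edgeR adjusted p = 0.00386). Srf, the related MADS-box factor, fell by 0.44 and then by 0.34 over the 2 WT-labelled steps and was not called between the labels at any stage (log2 fold changes 0.04, -0.03 and 0.02).

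Of the 70 listed genes together, of which Mef2b was not tested, 21 were called between the labels in myoblasts, 27 in differentiated and 16 in fused myotubes, where 11.5%, 25.2% and 13.0% of all genes were. These counts were 13 without WT-labelled myoblast replicate 3, 17 without Glud1KO-labelled differentiated replicate 2 and 10 without Glud1KO-labelled fused replicate 2. With the effective-length offset they were 12 in myoblasts and 8 in fused myotubes.

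The genes whose log2 CPM followed each member most closely over the 19 libraries were named from 11866 genes as a description. The libraries fall into 3 stages, which they all share. For Mef2c they were Smpx, Lmod2, Cap2 and Myl1, each with a Pearson r of 0.999, all known in the contractile or actin apparatus of striated muscle. For Mef2d they were Actn3 (0.999), Prkaca, Cap2 and Fgf13 (0.998 each). For Mef2a the closest were Setbp1 (0.970), Mroh1 (0.966), Plxna2 (0.961) and Rab3gap2 (0.960). Within the family the Pearson r was 0.997 between Mef2c and Mef2d, 0.804 between Mef2a and Mef2d and 0.794 between Mef2a and Mef2c.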

How the data were processed

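RNA was extracted with an RNeasy Plus micro kit and sequenced from TruSeq mRNA libraries, per the labels' protocols. The submitters' processing notes name bcl2fastq 2.20, fastp 0.20.0, kallisto 0.46.1, edgeR 3.36 and GRCm38.p6. The deposited files give an estimated count and a TPM value for each transcript and library, per the file headers. The strand setting is not given in the sources used here.

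Of 121843 transcripts, 121018 matched GENCODE M21 by identifier. The remaining 825 held 0.255% to 0.507% of counts and were left out. Estimated counts were summed per gene and rounded. Genes were filtered with filterByExpr, scaled by TMM and fitted in edgeR 4.0.16 (R 4.3.3) over all 19 libraries with 6 group means, with Benjamini-Hochberg adjustment over 15123 genes. CPM is per TMM-scaled library. Deposited TPM values were summed per gene for shares of the family. Transcript use was tested with diffSpliceDGE, exon shares with exact permutation tests (Python 3.11.15, SciPy 1.17.1), and exons were aligned with MAFFT 7.526. The sequence of the remaining Mef2a pair exon is not reported here. The scripts were tested on simulated counts, where the usage test also called unchanged transcripts, so its calls are given beside the values in the libraries. DESeq2 1.42.0 and other scalings, filters, a replicate block, a length offset, a length and GC trend and each library left out served as alternatives.

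The 3 genes and all lists were chosen with earlier results of these data known. The text names transcripts with at least 5% of their gene's counts in 1 group. From each list it names the 4 genes with the smallest adjusted p among those called between the labels and the 4 with the largest change from WT-labelled myoblasts to fused myotubes, and for each member the 4 genes most like it with a mean of at least 1 CPM. Limits for a count of 0 cover counting error only. The intervals for Mef2d were built from the SE of the edgeR fit, which includes the spread between libraries.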

Additional observations from a re-analysis of the deposited data

Results flagged for a closer look

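In 28 groups of 4 libraries checked for a library that stands apart from the others, 5 transcript shares did, and chance alone flags about 1 group in 20. Among WT-labelled fused myotubes these were replicate 2 for Mef2c-202, at 5.50% of the gene's counts where the others had 2.59% to 3.03%, replicate 1 for Mef2c-218, at 11.0%, and replicate 3 for Mef2d-202, at 13.5%. Among Glud1KO-labelled fused myotubes they were replicate 3 for Mef2c-228, at 4.52%, and replicate 4 for Mef2d-204, at 19.1%. These were 5 different libraries.

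The difference between the genotype labels depended on the stage for 2 genes, by a test of that difference with edgeR over all genes. For Mef2a it moved by 0.35 from myoblasts to differentiated myotubes and by 0.23 from myoblasts to fused myotubes, on the log2 scale. For Mef2c it moved by 0.78 and by 0.57.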

How the results depend on the processing

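The lower level of Mef2a under the Glud1KO label was called in all alternatives run, with log2 fold changes of -0.79 to -0.76 in myoblasts, -0.48 to -0.30 in differentiated and -0.56 to -0.48 in fused myotubes. Mef2c was called in all alternatives in myoblasts (-0.46 to -0.37) and differentiated myotubes (0.30 to 0.49). In fused myotubes it was not called with the effective-length offset (0.17), so 1 gene instead of 2 was called there, and leaving out 1 library gave 0.14 to 0.20 with 1 to 2 genes called. Mef2d, never called, changed sign in differentiated myotubes with library size alone (-0.042) and over libraries left out (-0.068 to 0.095), and in fused myotubes with a mean CPM of at least 1 (0.0017), the length and GC trend removed (0.033), only the groups compared (0.0017) and libraries left out (-0.026 to 0.014). Its change from differentiated to fused myotubes in the genotype difference was 0.038 with library size alone and -0.098 to 0.064 with a library left out. The same change was called for Mef2a by DESeq2 (-0.13) and with the trend removed (-0.18). For Mef2c it was called with DESeq2 size factors (-0.22), by DESeq2 (-0.22), with no filter (-0.20), a mean CPM of at least 1 (-0.21) and the trend removed (-0.27), and ranged from -0.27 to -0.14 with a library left out. The number of Mef2 genes called there was then 1 with DESeq2 size factors, no filter or the CPM minimum, 2 by DESeq2 or with the trend removed, and 0 to 1 with a library left out. Listed genes called between the labels numbered 12 in myoblasts and 8 in fused myotubes with the offset, and over libraries left out 13 to 20 in myoblasts, 17 to 27 in differentiated and 10 to 16 in fused myotubes. Mef2 transcripts called in myoblasts numbered 1 with only the groups compared and 1 to 4 with a library left out, and in differentiated myotubes 0 to 1 with a library left out. The cause of these changes was not tested.

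Over the alternatives Mef2a differed between WT-labelled myoblasts and fused myotubes by 0.59 to 1.21, and between differentiated and fused myotubes by -0.44 to -0.21. Library size alone shifted the median of all genes by -0.25 and -0.32 from WT-labelled myoblasts to differentiated and fused myotubes, and by -0.31 and -0.32 in Glud1KO-labelled cells. Over 9 same-numbered pairs of a WT-labelled and a Glud1KO-labelled library of the same stage, the deviations correlated by -0.050 to 0.029. The numbers thus showed no pairing between the labels within a stage, and pairing between stages was not tested. With the replicate block Mef2a in myoblasts was -0.77 and listed genes called there numbered 19, and 2 Mef2 transcripts were called in differentiated myotubes, against 1 without it. The depth limits transcript shares most for Mef2c in myoblasts, with 717 to 1003 counts per WT-labelled library.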
